A study of Drosophila melanogaster with 6 samples.

Results

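MicroRNA precursor hairpins were followed in midguts of female fruit flies that carry a mutation in RNA polymerase III (Pol III). The hairpins were found by matching the transcript identifiers of the deposited count table to the fly annotation and keeping those whose biotype was pre-miRNA. There were 81 of them among the 527 transcripts of the table that matched, with 4 further rows unmatched, and 12 had a mean raw count of at least 10 over the 6 libraries. The table held 3 libraries of the Polr3D mutant (label dC53EY22749) and 3 of the wild type (label White Dahomey). The mutant flies were heterozygous for a P-element insertion in Polr3D, a Pol III-specific subunit, and carried it in the whole body from development onwards; homozygotes are not viable. Both genotypes share the outbred Dahomey background, which is free of Wolbachia and into which the insertion had been backcrossed, and all flies were adult females 1 week old. The paper states that the background used for backcrossing carried a w or v mutation, so that insertions could be tracked. The label White Dahomey points to w, and which of these mutations the sequenced flies carried was not tested. RNA below 200 nucleotides was enriched and demethylated in both genotypes, which shifts recovery by length. Totals over all listed transcripts lay between 13465392 and 16891428 counts per library. The mRNA of Polr3D was not analysed here, so the genotypes rest on the labels.

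A microRNA (miRNA) gene is usually transcribed by RNA polymerase II into a long primary transcript that folds back on itself. The nuclease Drosha cuts out the hairpin, or precursor, and Dicer removes its loop to leave a short duplex, of which one arm becomes the mature miRNA. Mirtrons are hairpins that consist of a whole short intron, so that splicing takes the place of Drosha. Most hairpins are short-lived intermediates, and their level need not follow that of the mature miRNA. The hairpins are therefore short RNAs of these libraries that come, as a rule, from another polymerase than the mutated one.

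Few of the annotated hairpins were counted. The annotation holds 262 pre-miRNAs, all at most 174 bases long, and 81 (30.9%) were listed, with annotated lengths of 56 to 158 bases. Every row of the table held at least 1 count, and the remaining 181 hairpins were not analysed here. None of the 485 annotated mature miRNA transcripts was listed, and mature miRNAs were not analysed here. The values are counts assigned to hairpin transcripts, and whether they came from precursors or from other fragments that matched them was not tested. Of the 81 hairpins, 27 had a count in all 6 libraries, 40 had a mean below 1, and 19 rested on a single count. The median over the listed hairpins was a mean of 1 count per library. At least 1 count was found for 42, 49 and 49 hairpins in the mutant libraries and for 45, 54 and 44 in the wild-type libraries (replicates 1, 2 and 3 in that order, here and throughout), which overlapped. A total of 55 hairpins were counted in both genotypes, 12 in mutant libraries alone and 14 in wild-type libraries alone. None of these 12 exceeded 8 counts in all, and none of these 14 exceeded 4, so at this depth their absence from a genotype could not be told from low sampling.

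**Figure D1:**
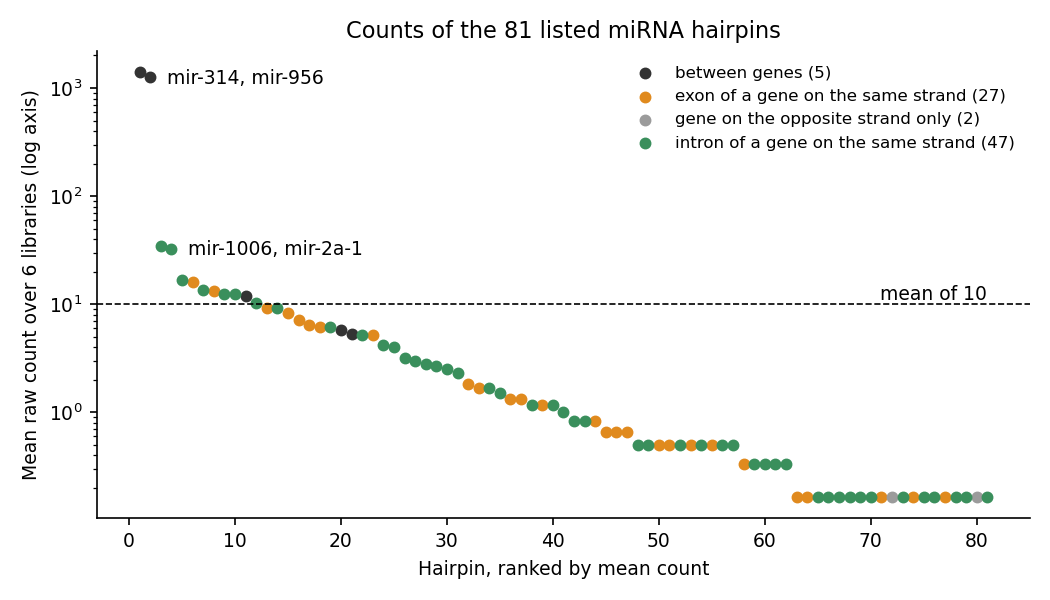
Mean raw count over the 6 libraries (y axis, logarithmic) for the 81 listed hairpins, ranked along the x axis and coloured by where the annotation places them. The 2 hairpins mir-314 and mir-956 had means of 1408 and 1254, the next, mir-1006, had 34.5, and 12 hairpins reached the dashed line at a mean of 10.

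Together, mir-314 and mir-956 held 89.8% of the 17774 hairpin counts. They ranked 166th and 175th by mean count in the whole table, and mir-956 stood 36.3-fold above the third hairpin. Both lie between annotated genes on chromosome 3L (BDGP6 assembly), 629 bases apart and on opposite strands. The mir-314 hairpin (FBtr0304290; chr3L:11773012-11773101, plus strand) is 90 bases long, with mature arms at 11773014 to 11773039 and 11773081 to 11773101. The mir-956 hairpin (FBtr0304425; chr3L:11773731-11773878, minus strand) is 148 bases long, and its arms, at 11773845 to 11773868 and 11773740 to 11773762, are separated by a long stretch of 82 bases. In the 11 other hairpins with a mean of at least 10, mir-314 included, 15 to 41 bases separated the arms. Per 100 bases of hairpin, the mean was 1564 counts for mir-314 and 847 for mir-956.

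The mir-314 hairpin had 1383, 1410 and 1033 raw counts in mutant libraries and 1422, 1414 and 1783 in wild-type libraries. TMM scaling adjusts the size of each library by a factor that allows for differences in composition. After TMM scaling, mir-314 stood at 87.0 ± 15.7 CPM (counts scaled to a common library size) in mutant libraries and 97.1 ± 5.82 CPM in wild-type libraries (SD, n = 3 each). Mutant replicate 3 was the lowest library at 69.5 CPM, and mutant replicate 1, at 99.9 CPM, lay within the wild-type range. The log2 fold change was -0.16 (SE 0.15, edgeR adjusted p = 0.605), with a 95% interval of -0.51 to 0.19. For mir-956 the raw counts were 1053, 1108 and 1330 in mutant libraries and 1285, 1459 and 1289 in wild-type libraries, or 79.2 ± 9.16 CPM in mutant libraries and 85.5 ± 11 CPM in wild-type libraries (SD, n = 3 each). The groups overlapped, and mutant replicate 3, the lowest for mir-314, was the highest of the mutant libraries. The log2 fold change was -0.11 (SE 0.15, edgeR adjusted p = 0.705), with a 95% interval of -0.44 to 0.22, and it was 0.01 when libraries were scaled on snoRNAs. These intervals correspond to 0.703 to 1.14 times the wild type for mir-314 and 0.736 to 1.17 times for mir-956.

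Scaled by library totals, the spread of both hairpins was wider than counting error. An index that is about 1 where replicates differ by counting error alone was 43.8 among mutant and 3.56 among wild-type libraries for mir-314, and 20.6 and 27.6 for mir-956. The index used library totals and not TMM scaling, so differences in composition between libraries also enter it. Although the loci are neighbours, the 2 hairpins did not keep a fixed proportion. The ratio of mir-314 to mir-956 counts, which is free of library scaling, was 1.31, 1.27 and 0.777 in the mutant libraries and 1.11, 0.969 and 1.38 in the wild-type libraries, and the genotypes overlapped.

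All hairpins together took 0.0186%, 0.0172% and 0.0174% of the counts in the mutant libraries, against 0.0221%, 0.0219% and 0.0198% in the wild-type libraries. The means were 0.0177% ± 0.000726 in mutant libraries and 0.0213% ± 0.00125 in wild-type libraries (SD, n = 3 each), and every mutant library lay below every wild-type library. Shares are scaled by library totals, and with that scaling the median log2 fold change of all 411 transcripts tested was -0.22. The highest mutant share had a 95% exact binomial interval of 0.0179% to 0.0193%, and the lowest wild-type share one of 0.0192% to 0.0205%, so that these intervals overlapped at their ends. They measure counting error alone and leave out the spread between libraries. Reads copied by PCR are not separate molecules, so they may be too narrow even for counting error. Without mir-314 and mir-956 the shares were 0.00150%, 0.00233% and 0.00226% in the mutant and 0.00200%, 0.00212% and 0.00158% in the wild type, which overlapped. After TMM scaling the summed CPM of all hairpins was 191.4, 189.4 and 182.9 in mutant libraries and 195.6, 211.4 and 194.3 in wild-type libraries, which again did not overlap. The sum of mir-314 and mir-956 did not overlap either, at 175.9, 163.7 and 159.1 CPM in mutant libraries and 177.9, 190.9 and 178.8 CPM in wild-type libraries, although each overlapped when taken alone. Among single transcripts, the genotypes did not overlap in CPM in 18.7% of the 411 tested. With RLE size factors or TMM on snoRNAs alone, both sums overlapped between the genotypes. The sums under every scaling, TMM included, and the separation of mir-314 and mir-956 from the rest were added after seeing the data.

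**Figure D2:**
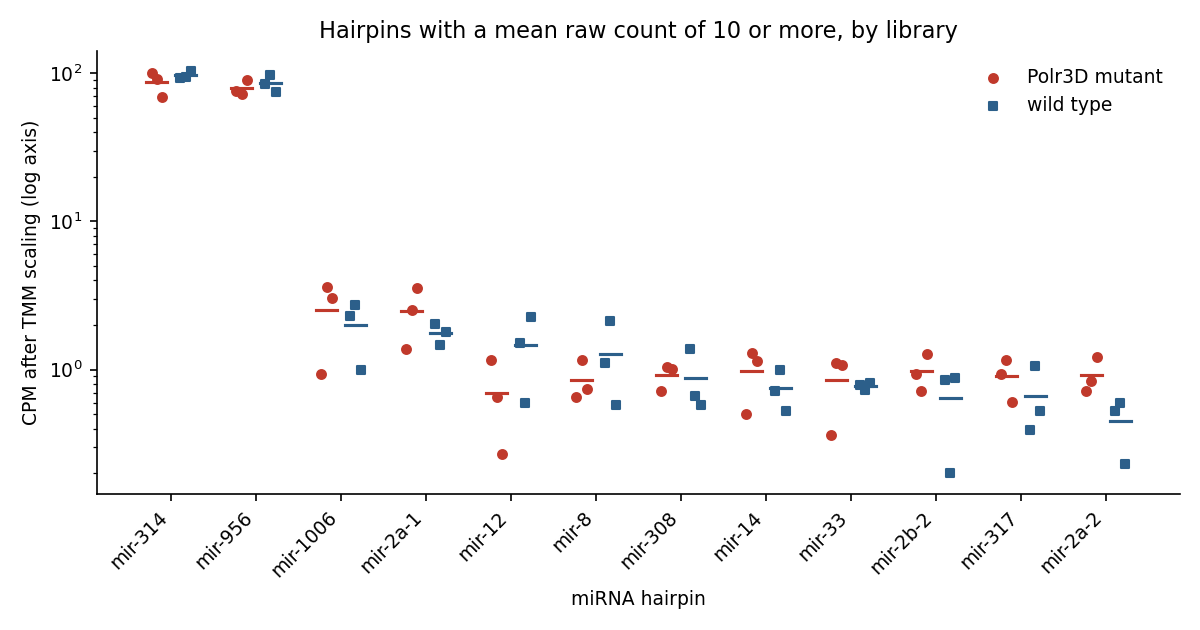
TMM-scaled CPM (y axis, logarithmic) in each library for the 12 hairpins with a mean raw count of at least 10, with the 3 mutant libraries (circles) left of the 3 wild-type libraries (squares) and a bar at each mean. The groups overlapped in each hairpin but mir-2a-2, whose mutant libraries lay between 0.722 and 1.21 CPM and whose wild-type libraries lay between 0.233 and 0.598 CPM.

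Mutant and wild type were compared with edgeR's quasi-likelihood test over 411 transcripts, at a Benjamini-Hochberg adjusted p below 0.10. The 12 hairpins with a mean of at least 10 were all tested, and no other hairpin was. None of the 12 was called, where 5 of all 411 transcripts (1.22%) were, and none of the 12 had an unadjusted p below 0.05. DESeq2 called none of the 11 to which it gave an adjusted p, with none of the 12 at an unadjusted p below 0.05, and it gave no adjusted p for mir-2a-2. By limma-voom none was called, with 1 at an unadjusted p below 0.05. Of all 411 transcripts DESeq2 called 30 and limma-voom 0, with 69 and 61 at an unadjusted p below 0.05. The edgeR adjusted p values of the hairpins ran from 0.355 to 0.911. The mutant and wild-type libraries did not overlap in 1 of the 12, where this held for 18.7% of all transcripts tested. Of the 12, 8 had a positive log2 fold change and 4 a negative one, with a median of 0.25, where 183 of all transcripts were positive and 228 negative, with a median of -0.05. Scaled by library totals alone, 6 of the 12 were positive and their median was 0.07. The median also moved with the libraries. It was 0.46, 0.01 and 0.09 without mutant replicates 1, 2 and 3, and 0.29, 0.13 and 0.09 without wild-type replicates 1, 2 and 3. For the 10 hairpins after mir-314 and mir-956 the intervals were wide, from -0.36 to 1.35 for mir-2a-1, the narrowest, to -2.47 to 0.28 for mir-12, the widest.

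**Figure D3:**
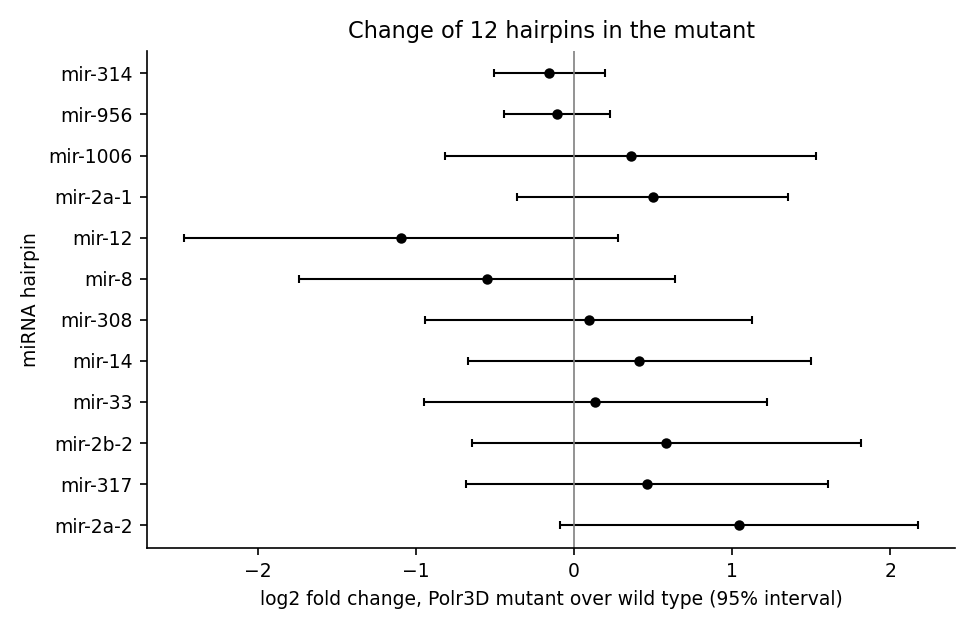
Log2 fold change of the mutant over the wild type (x axis) for the 12 hairpins tested, with 95% intervals from edgeR's quasi-likelihood fit. All 12 intervals included 0, from -0.44 to 0.22 for mir-956, the narrowest, to -2.47 to 0.28 for mir-12, the widest.

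The third hairpin, mir-1006, is a mirtron. It fills, base for base, the 64-base intron of VhaSFD (chr2L:16724795-16724858, minus strand), which encodes a subunit of the vacuolar proton pump. It had 13, 56 and 45 counts in mutant libraries and 35, 41 and 17 in wild-type libraries. Mutant replicate 1 and wild-type replicate 3 were the low libraries, and the groups overlapped (log2 fold change 0.36, SE 0.52, edgeR adjusted p = 0.718). Among annotated hairpins within introns that overlap no exon on the same strand, 31 span a whole intron, and 20 of them (64.5%) were listed. Of 68 hairpins inside longer introns, 27 (39.7%) were listed, and this difference was not tested. Among the 14 hairpins named mir-1003 to mir-1016, first described as mirtrons, 11 were listed. They summed to 28 to 92 counts per mutant library and 35 to 71 per wild-type library. Second among them by level was mir-1009, with 1, 10 and 5 counts in mutant libraries and 9, 11 and 3 in wild-type libraries. The annotation places mir-1009 over an exon of CG3860, and whether it also fills an intron in another transcript of that gene was not tested.

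By position, 47 of 99 hairpins within introns on the same strand were listed (47.5%), as were 27 of 88 that overlapped an exon on the same strand (30.7%), 5 of 48 between genes (10.4%) and 2 of 27 with a gene on the opposite strand only (7.41%). Reads from an exon of a host transcript could be shared with the hairpin, and the part of such reads was not tested. All shares of annotated hairpins given here are of release 54, while the authors quantified on release 32. Whether each hairpin was in that release was not tested. Whole clusters were also unlisted, so hairpins of a class are not all separate cases. They include the 7 hairpins of the mir-310 cluster (between genes) and the 6 of the mir-959 cluster (gene on the opposite strand only). Hairpins with another within 10000 bases on the same strand were listed in 25 of 79 cases (31.6%), against 56 of 183 (30.6%) of the others. None of the listed hairpins overlapped another transcript of the table.

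Members of the K-box family share a seed, the stretch near the 5′ end that pairs with targets, and are known to repress Notch target genes and the cell-death genes reaper, grim and sickle. Of its 13 hairpins, 7 were listed and 4 reached a mean of 10, and none was called. Summed counts ran from 55 to 110 in mutant libraries and from 46 to 76 in wild-type libraries. Most came from a cluster of 3 in a 2345-base intron of spi, which encodes the EGF receptor ligand Spitz (chr2L:19569490-19570264, minus strand). In this cluster mir-2a-1, the middle hairpin, had 19, 39 and 53 counts in mutant libraries and 31, 22 and 31 in wild-type libraries. Mutant replicate 1 was below all wild-type libraries and the other mutant libraries above them (log2 fold change 0.50, SE 0.38, edgeR adjusted p = 0.544). The first hairpin, mir-2b-2, had 13, 11 and 19 counts in mutant libraries and 13, 3 and 15 in wild-type libraries, and its log2 fold change was 0.58 (SE 0.54, adjusted p = 0.602). Wild-type replicate 2, with 3 counts, was the low one.

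The last hairpin of the cluster, mir-2a-2, had the smallest p of the 12. It held 10, 13 and 18 counts in mutant libraries and 8, 9 and 4 in wild-type libraries, or 0.926 ± 0.255 CPM in mutant libraries and 0.452 ± 0.193 CPM in wild-type libraries (SD, n = 3 each). The genotypes did not overlap in CPM, and the mutant was the higher. Its log2 fold change of 1.04 (SE 0.50, edgeR unadjusted p = 0.0666, adjusted p = 0.355) had a 95% interval of -0.09 to 2.18 and did not pass. The hairpins mir-2a-1 and mir-2a-2 belong to 1 family and may share reads, so the division between them is uncertain. Elsewhere, mir-308, in a 248-base intron of the ribosomal protein gene RpS23, had 10, 16 and 15 counts in mutant libraries and 21, 10 and 10 in wild-type libraries (log2 fold change 0.09, SE 0.46, adjusted p = 0.911). Its sign changed to -0.09 with library totals alone. The hairpin of mir-11, which lies in an intron of the cell-cycle factor gene E2f1, had 0, 5 and 3 counts in mutant libraries and 2, 2 and 5 in wild-type libraries.

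The second cluster by counts lies in a 2124-base intron of Gmap, a Golgi protein gene on the X chromosome (chrX:15507956-15509546, plus strand). Its last hairpin, mir-12, had 16, 10 and 4 counts in mutant libraries and 23, 9 and 39 in wild-type libraries. The lowest was mutant replicate 3 and the highest wild-type replicate 3, and the groups overlapped. Its log2 fold change, the most negative of the 12, was -1.10 (SE 0.61, 95% interval -2.47 to 0.28, edgeR unadjusted p = 0.104, adjusted p = 0.417), and it did not pass. Of its neighbours, mir-304 had 6, 8 and 7 counts in mutant libraries and 7, 5 and 4 in wild-type libraries, and mir-283 had 2, 5 and 7 in mutant libraries and 5, 4 and 1 in wild-type libraries. Both overlapped between the genotypes and neither was tested.

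**Figure D4:**
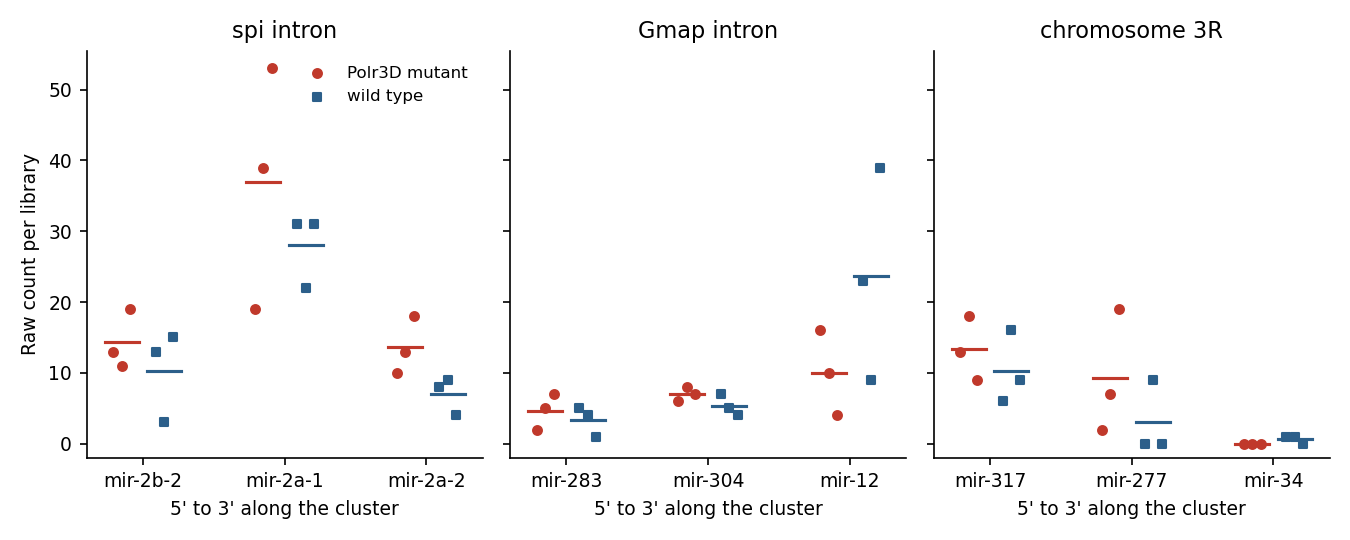
Raw counts per library (y axis) for the hairpins of the 3 clusters with most counts, in order from 5′ to 3′ along each cluster, with mutant libraries (circles) left of wild-type libraries (squares) and a bar at each mean. The highest hairpin held 58.9% of the counts in the spi cluster (mir-2a-1), 62.4% in the Gmap cluster (mir-12) and 64.5% in the 3R cluster (mir-317).

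In the cluster on chromosome 3R (chr3R:10091126-10101034, plus strand), counts differed between hairpins that lie within 9909 bases. The first, mir-317, had 13, 18 and 9 counts in mutant libraries and 6, 16 and 9 in wild-type libraries (log2 fold change 0.46, SE 0.51, edgeR adjusted p = 0.639). The second, mir-277, known for control of branched-chain amino acid breakdown, had 2, 7 and 19 counts in mutant libraries and 0, 9 and 0 in wild-type libraries. The 19 counts of mutant replicate 3 and the 9 of wild-type replicate 2 made up most of them. The third, mir-34, known in flies for its part in brain ageing, had 0 counts in each mutant library, which allows up to 0.210, 0.178 and 0.192 CPM by 3 counts of the total, and 1, 1 and 0 in wild-type libraries. In the let-7 complex, a set of miRNAs known for developmental timing, mir-let7 had 4, 9 and 4 counts in mutant libraries and 4, 3 and 7 in wild-type libraries, mir-125 had 7 of its 8 counts in mutant replicate 2, and mir-100 was not analysed here.

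Among miRNAs known from work on the gut and on growth, mir-8, the fly member of the miR-200 family, was the most abundant. It overlaps an exon of lncRNA:CR43650 and had 9, 18 and 11 counts in mutant libraries and 17, 32 and 10 in wild-type libraries. Its log2 fold change was -0.55 (SE 0.53, edgeR adjusted p = 0.602), and it moved to 0.02 without wild-type replicate 2, the library with 32 counts. The hairpin of mir-14, which acts in cell death and fat metabolism, overlaps an exon of lncRNA:CR43651 and had 7, 20 and 17 counts in mutant libraries and 11, 15 and 9 in wild-type libraries (log2 fold change 0.41, SE 0.48, adjusted p = 0.659). The hairpin of mir-33 lies in a 226-base intron of SREBP, a regulator of lipid synthesis, as mir-33 genes do in mammals. It had 5, 17 and 16 counts in mutant libraries and 12, 11 and 14 in wild-type libraries, and its log2 fold change of 0.13 (SE 0.48, adjusted p = 0.891) was -0.04 with library totals alone. In mir-8, mir-14 and mir-33 the groups overlapped.

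Of the 9 hairpins listed for midgut progenitors and gut epithelium, 8 were found by name in the annotation, and all 8 had counts. Their sums ran from 40 to 58 in mutant libraries and from 30 to 87 in wild-type libraries. Besides mir-8, mir-277 and mir-let7 these were bantam, mir-275, mir-305, mir-279 and mir-996, all below a mean of 10 and not tested. The name mir-263a was not found among the annotated hairpins, so it was not analysed here. The bantam hairpin (mir-ban), which promotes growth and blocks cell death, had 7, 15 and 6 counts in mutant libraries and 2, 12 and 8 in wild-type libraries. The neighbours mir-275 and mir-305 lie within 250 bases on chromosome 2L. They had 4, 5 and 8 counts (mir-275) and 9, 2 and 0 (mir-305) in mutant libraries, against 3, 14 and 9 (mir-275) and 4, 14 and 3 (mir-305) in wild-type libraries. Of the 7 hairpins listed for growth, metabolism and ageing, 5 had counts, which summed to 23 to 37 in mutant libraries and 19 to 45 in wild-type libraries, and mir-184 and mir-9a were not analysed here. The 2 other hairpins nearest below a mean of 10 were mir-986, in an intron of Cyp4e2, with 7, 13 and 16 counts in mutant libraries and 5, 6 and 8 in wild-type libraries, and mir-958, with 12, 18 and 7 in mutant libraries and 7, 1 and 10 in wild-type libraries.

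Of the hairpins taken as marks of other cell types, 1 each for muscle and neurons was listed. For muscle, mir-1 had 0 counts in each mutant library and 0, 1 and 0 in wild-type libraries. For neurons, mir-7, which lies in an intron of the RNA-binding protein gene HnRNP-K and is not confined to neurons, had 0, 0 and 1 in mutant libraries and 0 in each wild-type library. The 9 hairpins listed for ovary and early embryo and the 6 listed for testis were not analysed here, nor were mir-133, mir-124 and the other members of the mir-310 and mir-309 clusters. These counts are assigned to precursors, whose level in a tissue need not follow that of the mature miRNA, and mRNA markers of the midgut were not analysed here. Fewer cells of a type and less RNA per cell cannot be told apart in such bulk libraries.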

How the data were processed

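RNA under 200 nucleotides was demethylated and sequenced. The authors trimmed reads with Cutadapt (version 2.10), quantified them with Salmon (version 0.13.2) on all fly transcripts (BDGP6, release 32) and kept those shorter than 300 bases. What the authors deposited is a table of estimated counts, as whole numbers, with no scaling for depth. Reads matching several transcripts are divided among them. The annotation used here was BDGP6 release 54 (Ensembl release 115) of the same assembly. It matched 527 rows and left 4.

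The edgeR package (version 4.0.16) in R (version 4.3.3) kept 411 transcripts by filterByExpr (minimum count 10, minimum total 15), scaled them by TMM and compared genotypes with glmQLFit and glmQLFTest, two-sided, with no other term. Standard errors came from the F statistic, and 95% intervals from its degrees of freedom. Fits were tested on simulated data. Alternatives were DESeq2 (version 1.42.0), limma-voom (limma version 3.58.1), 3 other scalings, 2 other filters, a replicate block and leaving out each library. The threshold is the study's false discovery rate. Nothing states that replicates are separate batches of flies, so p-values measure the spread between these samples. Libraries of the same genotype all differed beyond sampling noise (lowest chi-square over its degrees of freedom 219).

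The hairpins, lists and tests were chosen with earlier results of these data known. All hairpins with a mean of 10 or more were named, with the 3 next below and members of fixed lists. Others were named after their values were seen. Hairpin sequences were not used here.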

Additional observations from a re-analysis of the deposited data

How the results depend on the processing

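No alternative called any of the 12 hairpins, with the exception that DESeq2 gave no adjusted p for mir-2a-2 (unadjusted p = 0.1003), and the smallest adjusted p was 0.211, for mir-12. Over the hairpins and alternatives, 159 of 168 log2 fold changes kept their sign and 9 did not. These were mir-33 with limma-voom (-0.011), with library totals alone (-0.039) and when a library was left out (-0.079 to 0.48), mir-308 with library totals alone (-0.092) and when a library was left out (-0.14 to 0.57), mir-956 with TMM on snoRNAs alone (0.0056) and mir-8 when a library was left out (-0.91 to 0.020). The number of calls among all transcripts was 5, against 30 with DESeq2, 0 with limma-voom (61 at an unadjusted p below 0.05), 10 with RLE size factors, 16 with library totals alone, 10 with TMM on snoRNAs alone, 16 with no filter, 0 with a mean raw count of at least 10 and 0 to 47 without one library (12, 1 and 47 without mutant replicates 1, 2 and 3, and 0 without any one wild-type library). Library totals alone put the median log2 fold change of all transcripts at -0.22 and snoRNA scaling at 0.07, against -0.05. With a replicate block 14 transcripts and 0 hairpins were called. Same-numbered libraries did not deviate together (mean correlation -0.19), the sources do not say whether they were handled together, and the numbers were not used as pairs. The share of counts in hairpins differed by -0.00354 percentage points, and by 0.000133 without mir-314 and mir-956, an alternative chosen after seeing the data. The cause of these changes was not tested. The hairpins after mir-314 and mir-956 had mean counts of 34.5 or less. Scaled by library totals, several also varied beyond counting error (index 10.1 in mutant and 7.43 in wild-type libraries for mir-1006, 4.40 and 7.21 for mir-12).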
